A study of Mus musculus with 12 samples.

Results

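Retinoic acid is made from vitamin A and acts through nuclear receptors, so the genes that make, carry, sense and destroy it set how much of the signal a cell receives. The genes followed here are 9 mouse genes of that pathway, found by symbol among the 25210 rows of a table of read counts per gene. Dhrs9 oxidises retinol to retinal, and Aldh1a1 and Aldh1a3 oxidise retinal to retinoic acid. Crabp2 carries retinoic acid to the receptors, Rara, Rarb and Rarg encode the 3 retinoic acid receptors, and Cyp26a1 and Cyp26b1 break retinoic acid down. All 9 genes had a row and all 9 passed the filter on low counts, Cyp26a1 through the groups in which it had counts.

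The samples were primary mammary epithelial organoids from virgin female FVB/N mice aged 8 to 11 weeks, with no transgene or genetic change named in the labels. Organoids from each of 3 animals were kept in Matrigel in minimal medium for 7 days with the vehicle DMSO or with CHIR99021 at 1, 1.5 or 3 µM, so that each animal gave 1 culture and each culture received all 4 treatments. CHIR99021 inhibits the kinase GSK3 and was used to raise WNT/CTNNB1 signalling. RNA was sequenced in bulk, with 3 libraries per group and 12 in all, and the replicate number is the culture. The sample titles also mark the cultures, in order of their number, as med, min and max, and do not say what these marks mean. Levels are given as counts per M counts (CPM, M for mega) on a TMM-scaled library size, and a change was called where edgeR's quasi-likelihood test gave a Benjamini-Hochberg adjusted p under 0.05 over the 15316 genes tested.

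The libraries held 10.1 to 24.5 M counts. Markers of the labelled epithelium (Epcam, Cdh1, Krt8, Krt18, Krt19) summed to 2242 to 4438 CPM over the 12 libraries, and at 3 µM 3 of 5 were called lower. Other cell types moved with dose. Squamous markers summed to 69.4 to 89.3 CPM in DMSO and to 2336 to 19390 CPM at 3 µM, with 10 of 10 called higher, and culture 3 had the lowest sum in every group. Fibroblast markers summed to 1566 to 20280 CPM in DMSO and 178.5 to 4549 CPM at 3 µM, with 0 of 8 called and culture 3 highest at every dose. Adipocyte markers fell from 3375 to 8990 CPM to 36.2 to 237.4 CPM, with 5 of 5 called lower, and macrophage markers from 258.6 to 2544 CPM to 39.0 to 117 CPM, with 5 of 6 called lower. Endothelial markers fell from 242.7 to 502.9 CPM to 27.1 to 86.6 CPM, with 5 of 5 called lower. Basal markers went both ways, with 3 called higher and 3 lower, and their sum went from 1984 to 3257 CPM to 14450 to 31310 CPM while Acta2, a contractile gene, went from 257.7 to 428.1 CPM to 5.87 to 19.3 CPM. Of luminal progenitor markers 2 of 5 were called higher, and of 6 hormone-sensing markers 1 was called higher and 3 lower. None of these lists had a gene at 3 counts or fewer in every library. In bulk RNA, fewer cells of a type and less RNA per cell cannot be told apart, and the part of these cell types in the changes below was not tested.

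**Figure D1:**
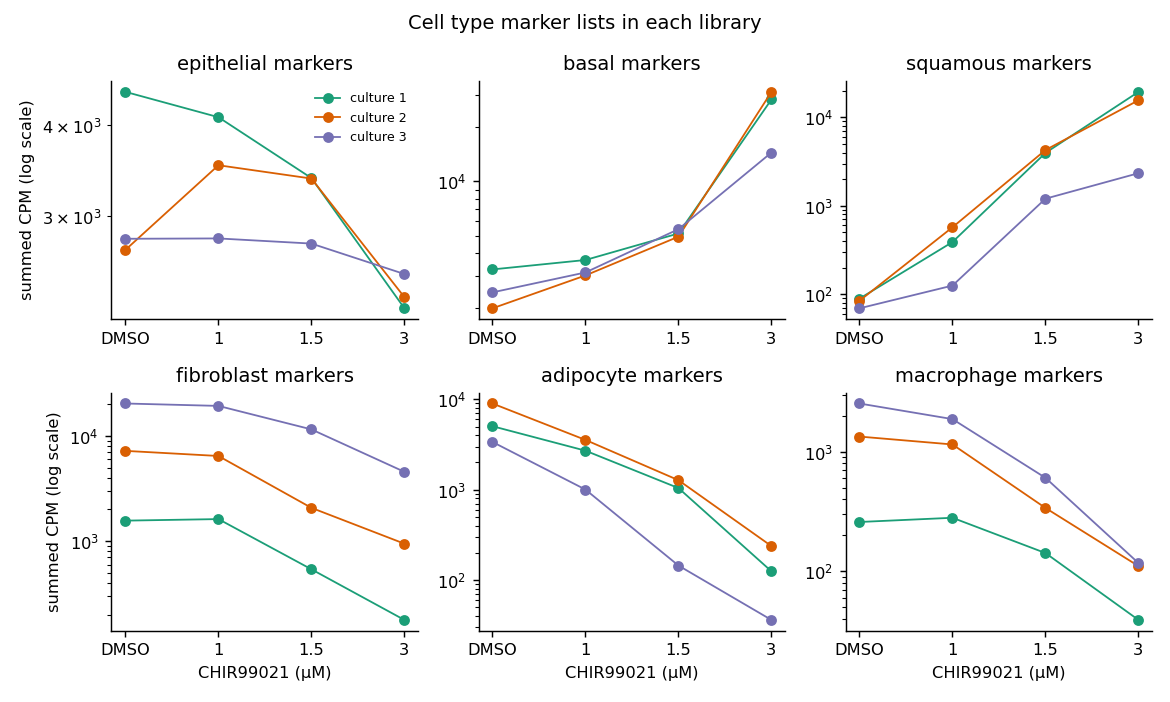
Summed CPM of 6 marker lists (log axes) against treatment, evenly spaced, with 1 line per culture. Squamous markers rose from under 89.3 CPM to between 2336 and 19390 CPM at 3 µM, adipocyte and macrophage markers fell, and culture 3 had the most fibroblast marker RNA in each group.

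The 9 genes did not move as a block. At 3 µM, 7 were called against DMSO, 2 higher (Crabp2, Rarg) and 5 lower (Aldh1a3, Rara, Rarb, Cyp26a1, Cyp26b1), where 57.5% of all genes tested were called, 29.9% higher and 27.7% lower. At 1.5 µM, 5 were called, Crabp2 higher and Aldh1a3, Rara, Cyp26a1 and Cyp26b1 lower, against a background of 27.3%, 15.4% higher and 11.8% lower. At 1 µM, 0 were called by edgeR, against a background of 0.242%, and 0 by DESeq2, against 3.17%. An unadjusted edgeR p under 0.05 was found there for 1 member (Aldh1a3) and for 1798 of the 15316 genes tested. The members' median log2 fold change was −0.27, −1.01 and −1.60 at 1, 1.5 and 3 µM, beside −0.0046, −0.0018 and −0.03 for all genes tested. With library size alone in place of TMM, the median of all genes shifted to −0.23 at 3 µM, and the call for Rarg was lost. The libraries of 5 members did not overlap with those of DMSO at 3 µM, where 60.8% of all genes did not overlap. The 3 comparisons with DMSO share its libraries, and the fit behind these calls had no term for the culture. With the replicate number as a block, Cyp26b1 was lost at 3 µM (edgeR adjusted p = 0.0619) and Cyp26a1 at 1.5 µM (edgeR adjusted p = 0.0549). Aldh1a1 was then gained as lower at 1.5 µM (edgeR adjusted p = 0.0164) and at 3 µM (edgeR adjusted p = 0.0219).

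**Figure D2:**
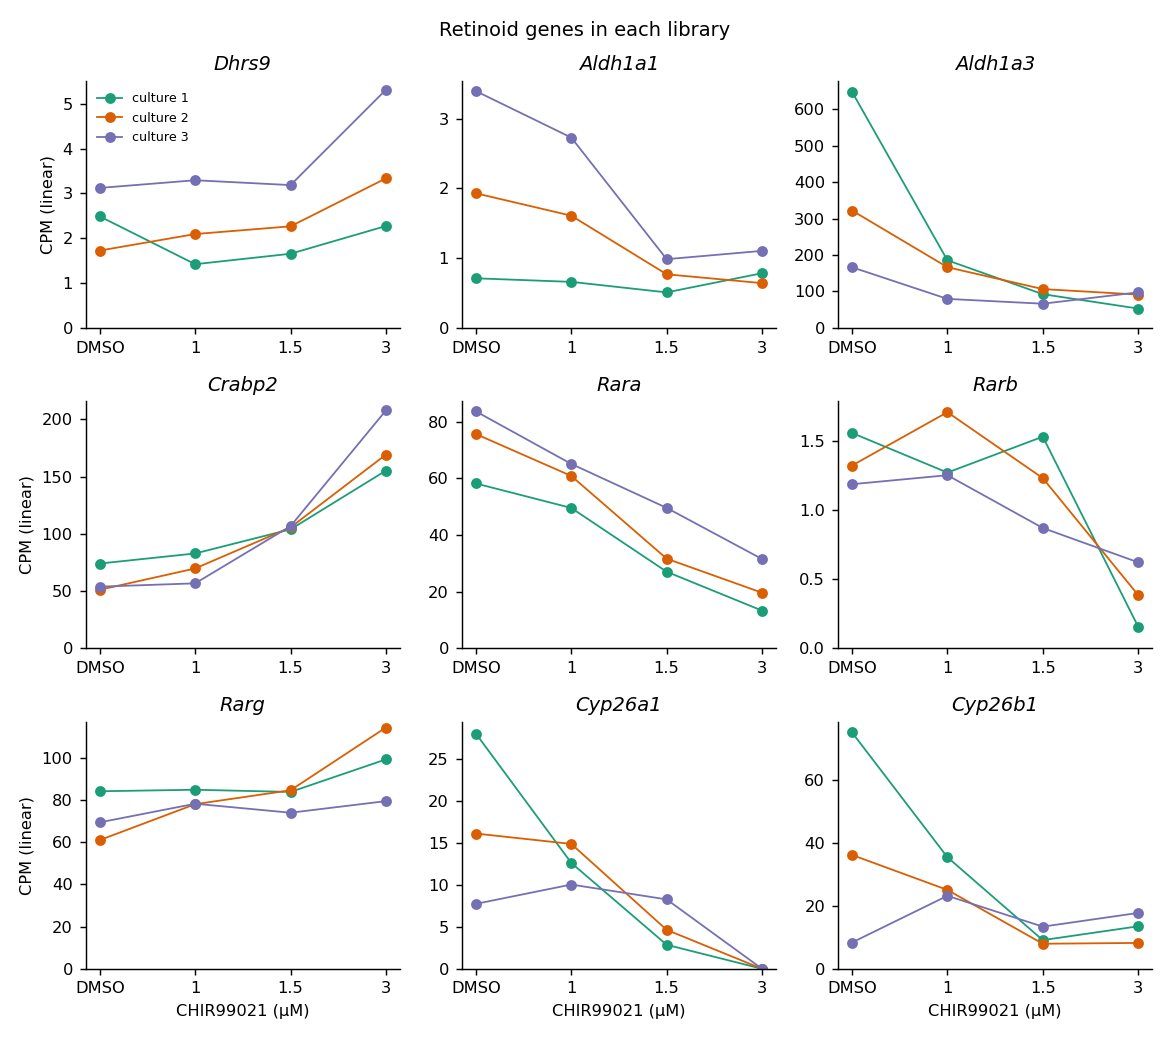
Level of each gene (CPM, linear axes from 0) against treatment, evenly spaced, with 1 point per library joined by culture. Crabp2 climbed in all 3 cultures, Rara declined in all 3, and Cyp26a1 was at 0 in all 3 libraries at 3 µM.

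The genes that make retinoic acid differed in level and in response. Aldh1a3 (ENSMUSG00000015134, chromosome 7, 66390892 to 66427517) was by far the more abundant of the 2 dehydrogenases, at 82.1 ± 53.2 CPM per kb of exon in DMSO against 0.41 ± 0.27 for Aldh1a1 (SD, n = 3). Aldh1a3 stood at 647.7, 322.2 and 166.5 CPM in the DMSO libraries of cultures 1, 2 and 3, at 185.6, 166.6 and 79.7 CPM at 1 µM, at 92.6, 106.6 and 66.5 CPM at 1.5 µM, and at 53.2, 91.5 and 97.7 CPM at 3 µM. The DMSO libraries were spread widely, and every library at 1.5 and 3 µM lay below all of them. Aldh1a3 fell 4.28-fold at 1.5 µM (log2 fold change −2.10 ± 0.49 SE, edgeR adjusted p = 0.0115) and 4.69-fold at 3 µM (−2.23 ± 0.49 SE, edgeR adjusted p = 0.0033). From 1.5 to 3 µM the change was −0.13 ± 0.47 and was not called (edgeR adjusted p = 0.855). Without culture 2 the adjusted p was 0.152 at 1.5 µM and 0.0596 at 3 µM, and without culture 1 both calls were lost as well.

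Within culture 1 the 3 µM level of Aldh1a3 was 0.0821 of its own DMSO level, in culture 2 it was 0.284 and in culture 3 it was 0.587. The cultures thus differed most in DMSO and came to similar levels at 1.5 µM. A difference of slope between cultures was not called for Aldh1a3 (edgeR adjusted p = 0.551).

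Aldh1a1 (ENSMUSG00000053279, chromosome 19, 20601961 to 20643462) was a low gene, with 8 to 63 counts per library. Its level was 0.71, 1.93 and 3.39 CPM in DMSO, 0.66, 1.61 and 2.73 CPM at 1 µM, 0.51, 0.77 and 0.98 CPM at 1.5 µM, and 0.78, 0.64 and 1.10 CPM at 3 µM. Cultures 2 and 3 were lower at 1.5 and 3 µM than in DMSO, while culture 1 was near its DMSO level at every dose, so the groups overlapped. The log2 fold change of Aldh1a1 at 3 µM was −1.24 ± 0.63 (edgeR adjusted p = 0.112), and with the replicate number as a block it was −1.12 ± 0.37 and passed (edgeR adjusted p = 0.0219). At 1.5 µM it was −1.40 ± 0.62 (edgeR adjusted p = 0.12) and likewise passed with the block (edgeR adjusted p = 0.0164). Both doses also passed without DMSO replicate 1 (edgeR adjusted p = 0.041 at 1.5 µM and 0.0323 at 3 µM). Aldh1a1 shares 3.06% of its 50-base stretches with Aldh1a7, a more abundant paralog described below, and overlaps C730002L08Rik and Gm6684 on the other strand, so part of its few counts is uncertain.

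Dhrs9 (ENSMUSG00000027068, chromosome 2, 69380445 to 69404533) had 17 to 77 counts per library. It measured 2.49, 1.73 and 3.12 CPM in DMSO, 1.42, 2.10 and 3.30 CPM at 1 µM, 1.66, 2.27 and 3.19 CPM at 1.5 µM, and 2.27, 3.34 and 5.31 CPM at 3 µM. Treated libraries of culture 1 were below their own DMSO library and those of cultures 2 and 3 above theirs. The 3 µM difference was 0.56 ± 0.42 on the log2 scale and was not called (edgeR adjusted p = 0.271).

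Crabp2 (ENSMUSG00000004885, chromosome 3, 87948666 to 87953376), the carrier that hands retinoic acid to the receptors, was the member with the steadiest rise. It measured 74.1, 51.2 and 53.9 CPM in DMSO, 82.9, 69.8 and 56.8 CPM at 1 µM, 104, 105.7 and 106.8 CPM at 1.5 µM, and 155.3, 169.3 and 207.9 CPM at 3 µM. All libraries at 1.5 and 3 µM lay above every DMSO library, and the 3 cultures were nearly equal at 1.5 µM. Crabp2 rose 1.76-fold at 1.5 µM (log2 fold change 0.82 ± 0.17, edgeR adjusted p = 0.00716) and 2.97-fold at 3 µM (1.57 ± 0.18, edgeR adjusted p = 5.21e-05). It rose again from 1.5 to 3 µM (0.75 ± 0.17, edgeR adjusted p = 0.0101), one of 3 members called for that step, with Rarb and Cyp26a1 lower, beside 29.7% of all genes (17.0% higher, 12.7% lower). This step was lost with library size alone (edgeR adjusted p = 0.082) and without culture 2 (edgeR adjusted p = 0.147), as was the 1.5 µM call without culture 2 (edgeR adjusted p = 0.183). Per µM, the slope was 0.55 ± 0.06 (edgeR adjusted p = 2.14e-05).

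By the change from the own DMSO library over the 9 treated libraries, the genes most like Crabp2 among 12433 compared were Myo5b, Pkp4 and Ripk4. Their root mean square differences from Crabp2 were 0.12, 0.13 and 0.16 on the log2 scale, where the median over all genes compared was 1.10. Each level had 0.5 CPM added before the log, and genes picked as the nearest lie below the median by choice. From DMSO to 3 µM, Myo5b went from a mean of 39.5 to 123 CPM, Pkp4 from 67.3 to 183.4 CPM, and Ripk4 from 36.4 to 101.1 CPM.

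The 3 receptors went in different directions. Rara (ENSMUSG00000037992, chromosome 11, 98927818 to 98974942) was at 58.2, 75.7 and 83.6 CPM in DMSO, 49.6, 60.9 and 65.1 CPM at 1 µM, 27.1, 31.7 and 49.6 CPM at 1.5 µM, and 13.3, 19.6 and 31.5 CPM at 3 µM. It was lower at each higher dose within all 3 cultures, and the 1.5 and 3 µM libraries did not overlap with DMSO. Rara fell 2.01-fold at 1.5 µM (log2 fold change −1.01 ± 0.31, edgeR adjusted p = 0.0367) and 3.37-fold at 3 µM (−1.75 ± 0.32, edgeR adjusted p = 0.00106). The 1.5 µM call was lost in 5 of 12 fits without 1 library (DMSO replicates 2 and 3, 1 µM replicate 2, 1.5 µM replicates 1 and 2, highest edgeR adjusted p = 0.13), and without culture 2 the 3 µM value was just short of the threshold (edgeR adjusted p = 0.053). With the replicate number as a block, the steps of Rara from 1 to 1.5 µM (−0.74 ± 0.15, edgeR adjusted p = 0.00982) and from 1.5 to 3 µM (−0.77 ± 0.15, edgeR adjusted p = 0.00366) were also called, where without it they were −0.70 and −0.75 (edgeR adjusted p = 0.227 and 0.0975).

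Rarg (ENSMUSG00000001288, chromosome 15, 102234938 to 102257517), the receptor known as the main one of epidermis, was at 84.0, 60.9 and 69.3 CPM in DMSO, 84.7, 77.9 and 78.1 CPM at 1 µM, 83.7, 84.5 and 73.9 CPM at 1.5 µM, and 99.1, 114.2 and 79.4 CPM at 3 µM. The groups overlapped at every dose, and culture 2 had the lowest DMSO and the highest 3 µM library. Rarg was called 1.37-fold higher at 3 µM (log2 fold change 0.45 ± 0.15, edgeR adjusted p = 0.0225). That call was lost without culture 2, where the log2 fold change was 0.22 (edgeR adjusted p = 0.334), and in 4 of 12 fits without 1 library (DMSO replicate 2 or 3, 3 µM replicate 1 or 2, highest edgeR adjusted p = 0.115). It was also lost with library size alone (edgeR adjusted p = 0.19), with no filter (edgeR adjusted p = 0.0623) and with the 2 groups alone (edgeR adjusted p = 0.111).

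Rarb (ENSMUSG00000017491, chromosome 14, 16430842 to 16575472), a receptor gene that retinoic acid itself induces in many cells, was the scarcest receptor. It measured 1.56, 1.32 and 1.19 CPM in DMSO, 1.27, 1.71 and 1.25 CPM at 1 µM, 1.53, 1.23 and 0.87 CPM at 1.5 µM, and 0.16, 0.39 and 0.62 CPM at 3 µM, the last from 2, 6 and 9 counts. Rarb was near its DMSO level up to 1.5 µM, and all 3 µM libraries lay below every other library. It fell 3.42-fold at 3 µM (log2 fold change −1.77 ± 0.43, edgeR adjusted p = 0.0052) and 3.05-fold from 1.5 to 3 µM (−1.61 ± 0.43, edgeR adjusted p = 0.0187). The latter call was lost in the fits without 1.5 µM replicate 1 or 2 or 3 µM replicate 2 (highest edgeR adjusted p = 0.0619), and both were lost without culture 1 or 2. Rarb overlaps Top2b and Gm48162 on the other strand, and the strand setting of the counting is not given in the sources used here.

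Per kb of exon, Rara and Rarg stood at like levels in DMSO, 16.6 ± 3.0 and 16.8 ± 2.7 CPM per kb, with Rarb at 0.26 ± 0.04 (SD, n = 3). At 3 µM the levels were 4.93 ± 2.12, 22.9 ± 4.1 and 0.07 ± 0.04 CPM per kb. As a share of the 3 receptors' summed level, Rara went from 49.4% in DMSO to 41.1%, 29.9% and 17.9% at 1, 1.5 and 3 µM, and Rarg from 49.9% to 58.0%, 69.3% and 81.8%. Every 3 µM library had a larger Rarg share, 71.7% to 88.3%, than any DMSO library, 44.9% to 59.1%. The log2 ratio of Rara to Rarg was 2.27 lower at 3 µM (difference −2.27, exact permutation p = 0.1, two-sided, the smallest that 3 against 3 libraries allow). That permutation ignores the pairing by culture. The ratio sets a receptor called lower against one called higher in the same libraries, so it is no separate support for those calls. The summed level itself went from 33.6 ± 1.9 to 27.9 ± 3.0 CPM per kb.

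**Figure D3:**
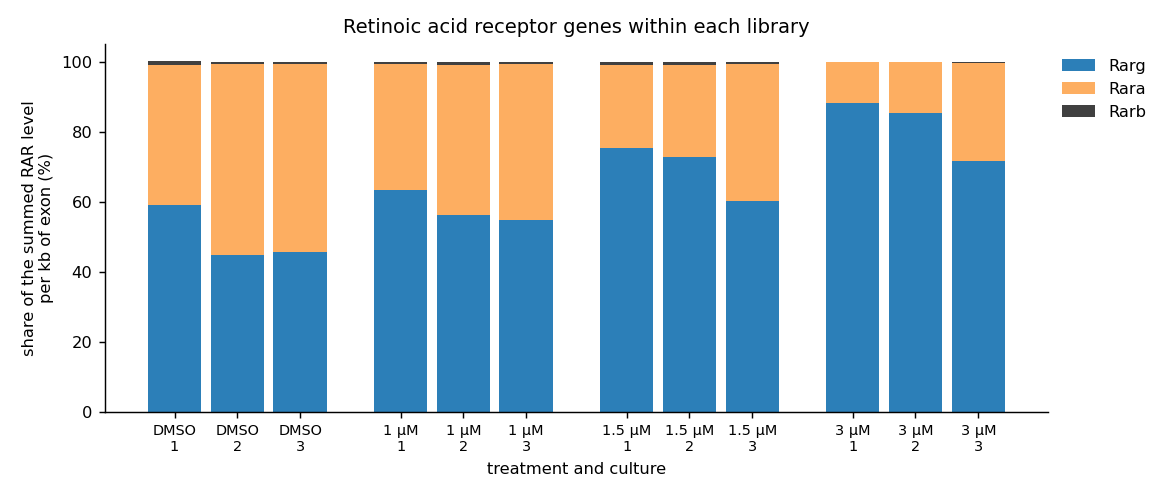
Share of each receptor gene in the summed level of the 3 (CPM per kb of exon, percent) in each library, grouped by treatment with the culture below. Rarg made up 44.9% to 59.1% in DMSO and 71.7% to 88.3% at 3 µM, and Rarb stayed a thin band.

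The largest change was in breakdown. Cyp26a1 (ENSMUSG00000024987, chromosome 19, 37697808 to 37701528) encodes the inducible retinoic acid hydroxylase, and retinoic acid receptors are known to act at its promoter through a DR5 element, a pair of receptor half-sites spaced by 5 bases. Rarb has the classic element of this kind, so both upstream windows are shown. They are the 250 bases before the RefSeq start (GRCm38.p6), 5′ to 3′ in the gene's direction, with the DR5 in capitals. The half-site searched was AGGTCA with its variants GGGTCA or AGTTCA or else GGTTCA, any of these followed by any other or the same after 5 bases, on both strands.
Cyp26a1, chr19:37697558-37697807, plus strand: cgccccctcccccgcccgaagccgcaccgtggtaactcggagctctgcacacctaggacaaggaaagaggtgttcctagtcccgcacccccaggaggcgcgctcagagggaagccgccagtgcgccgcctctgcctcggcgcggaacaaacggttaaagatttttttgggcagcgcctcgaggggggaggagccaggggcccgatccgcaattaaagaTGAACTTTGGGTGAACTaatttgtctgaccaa
Rarb, chr14:16575477-16575726, minus strand: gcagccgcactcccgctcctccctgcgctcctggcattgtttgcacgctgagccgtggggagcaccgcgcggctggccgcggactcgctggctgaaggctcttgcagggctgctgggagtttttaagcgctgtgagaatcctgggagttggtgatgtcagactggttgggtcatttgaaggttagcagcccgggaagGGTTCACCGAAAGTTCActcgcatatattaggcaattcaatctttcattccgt
The Cyp26a1 match lies 32 to 16 bases upstream and reads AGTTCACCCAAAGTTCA on the opposite strand. The Rarb match lies 53 to 37 bases upstream and reads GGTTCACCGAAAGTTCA in the gene's direction. RefSeq windows of 250 bases before to 50 after a start were at hand for 7 of the 9 genes, 12 windows in all, and the DR5 was in these 2 of the 12. Over all genes it was in 32 of 32851 windows (0.0974%). The TCF letters CTTTGAT, or ATCAAAG on the other strand, were in 0 of the 12 windows and in 3.73% of all. A match describes letters and shows no binding.

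Cyp26a1 was at 28.1, 16.2 and 7.76 CPM in DMSO (632, 159 and 144 counts), 12.6, 14.9 and 10.1 CPM at 1 µM, 2.87, 4.65 and 8.29 CPM at 1.5 µM, and had 0 counts in all 3 libraries at 3 µM. At 3 µM no library overlapped with any other group, while at 1.5 µM cultures 1 and 2 were low and culture 3 was still at its DMSO level. Against the floor of 3 counts per library, Cyp26a1 was at least 73.7-fold lower at 3 µM than in DMSO (edgeR adjusted p = 6.96e-05) and at least 22.4-fold lower than at 1.5 µM (edgeR adjusted p = 0.000985). The call at 3 µM against DMSO held in all fits run, and that against 1.5 µM was lost without culture 2 (edgeR adjusted p = 0.0604). At 1.5 µM the fall was 3.29-fold (log2 fold change −1.72 ± 0.52, edgeR adjusted p = 0.0419), and with the replicate number as a block it was not called (edgeR adjusted p = 0.0549). It was also lost in 7 of 12 fits without 1 library (DMSO replicates 1 and 2, each 1 µM replicate, 1.5 µM replicates 1 and 2, highest edgeR adjusted p = 0.124). Within culture 3 the level was 1.30 and 1.07 times its own DMSO level at 1 and 1.5 µM, where culture 1 was at 0.45 and 0.102.

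The genes with the most similar change to Cyp26a1, by the same measure as for Crabp2, were Thsd7a, Scube3 and Fam180a. Their root mean square differences were 0.56, 0.61 and 0.66, where the median was 3.20. With 0 counts of Cyp26a1 at 3 µM, the size of its change there is set by the 0.5 CPM added. Thsd7a went from a mean of 36.9 CPM in DMSO to 0.78 CPM at 3 µM, Scube3 from 21.2 to 0.35 CPM, and Fam180a from 9.88 CPM to 0 counts.

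Cyp26b1 (ENSMUSG00000063415, chromosome 6, 84571414 to 84593908), the second hydroxylase, remained detectable. It was at 75.1, 36.2 and 8.35 CPM in DMSO, 35.4, 25.1 and 23.2 CPM at 1 µM, 9.10, 7.95 and 13.4 CPM at 1.5 µM, and 13.5, 8.21 and 17.7 CPM at 3 µM. Cultures 1 and 2 were below their own DMSO library at every dose and culture 3 was above its own at every dose, so the groups overlapped. Cyp26b1 was called 3.94-fold lower at 1.5 µM (log2 fold change −1.98 ± 0.62, edgeR adjusted p = 0.0401) and 3.04-fold lower at 3 µM (−1.60 ± 0.62, edgeR adjusted p = 0.0468), with the direction set by cultures 1 and 2. The 3 µM call was lost in 11 of 12 fits without 1 library (all but DMSO replicate 3, highest edgeR adjusted p = 0.268, without DMSO replicate 1) and with the replicate number as a block (edgeR adjusted p = 0.0619). The 1.5 µM call was lost in 9 of these 12 fits (all but DMSO replicate 3 and 3 µM replicates 2 and 3, highest edgeR adjusted p = 0.155).

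In DMSO the 2 hydroxylases were at like levels per kb of exon, 8.74 ± 5.15 for Cyp26a1 and 7.45 ± 6.26 CPM per kb for Cyp26b1 (SD, n = 3). At 3 µM Cyp26b1 was at 2.46 ± 0.89 CPM per kb and Cyp26a1 at 0 counts.

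**Figure D4:**
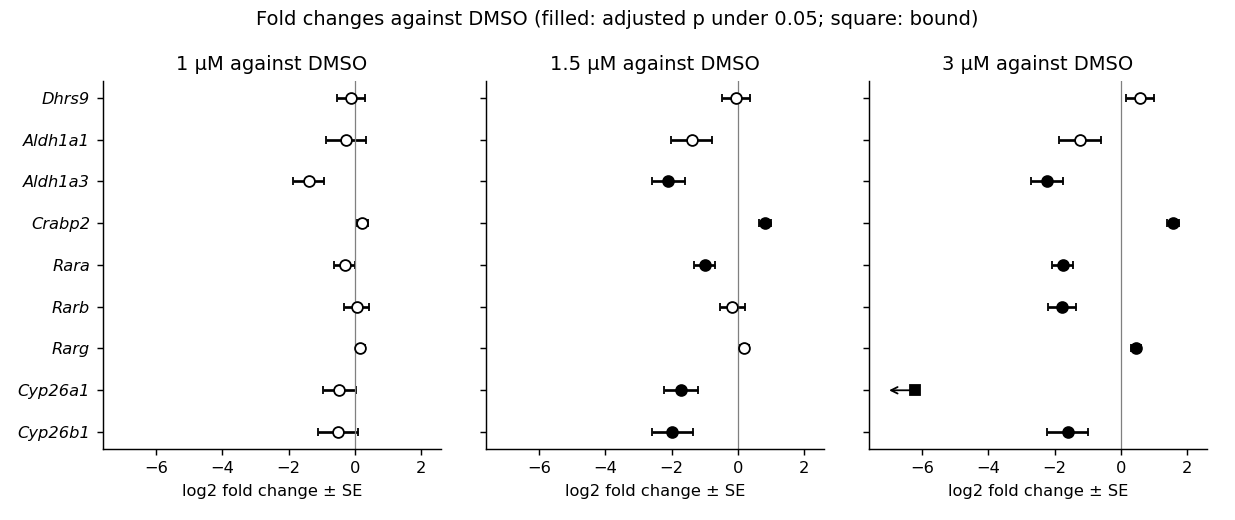
Log2 fold change ± SE of each gene against DMSO at 3 doses (edgeR), filled where the adjusted p is under 0.05. The square with an arrow is Cyp26a1 at 3 µM, drawn at its bound of at least 73.7-fold lower, and Crabp2 and Rarg are the genes called higher.

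Across all doses together, the slope per µM was called for 7 of 9 members, where 58.2% of all genes were called (30.2% higher, 28.0% lower), with the genes and directions of the 3 µM comparison. With the replicate number as a block the slope was called for 7 members as well, but Cyp26b1 was lost (edgeR adjusted p = 0.065) and Aldh1a1 was gained as lower (edgeR adjusted p = 0.0329). For the step from 1 to 1.5 µM, 0 members were called by edgeR, where 5.43% of all genes were, and 1 (Crabp2) by DESeq2. The unadjusted edgeR p for this step was under 0.05 for 4 members and for 3292 of the 15316 genes tested. With the replicate number as a block, 2 members (Crabp2, Rara) were called for that step, where 21.9% of all genes were.

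The cultures differed, whatever the treatment, in 3 members beside 28.8% of all genes: Dhrs9 (edgeR adjusted p = 0.024), Aldh1a1 (edgeR adjusted p = 0.0167) and Rara (edgeR adjusted p = 0.00846). All 3 were highest in culture 3 in each of the 4 treatments, with mean levels over cultures 1, 2 and 3 of 1.96, 2.36 and 3.73 CPM for Dhrs9, 0.67, 1.24 and 2.05 CPM for Aldh1a1 and 37.0, 47.0 and 57.5 CPM for Rara. Culture 3 also had the highest fibroblast marker sum in each treatment, and its part in these differences was not tested. A slope that differed between cultures was called for 0 members by edgeR and for 1, Rarg, by DESeq2 (adjusted p = 0.0434). For that test edgeR called 0.0% of all genes. Its unadjusted p was under 0.05 for 2 members (Aldh1a3, Rarg) and for 1230 of the 15316 genes tested.

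Around these 9, a list of 47 other genes of the retinoid pathway was followed, of which 46 had a row and 42 were tested. At 3 µM 10 were called higher and 17 lower, 27 of 42 in all, a share near the 57.5% of all genes tested (29.9% higher, 27.7% lower). Their median log2 fold change at 3 µM was −0.49, where that of all genes was −0.03. At 1.5 µM 7 were higher and 10 lower, where 15.4% of all genes were higher and 11.8% lower. With the replicate number as a block these became 12 higher and 15 lower, with 46.7% of all genes called, and without culture 2 they became 1 higher and 1 lower.

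At 1 µM 0 of the 42 were called by edgeR without the block, where 0.242% of all genes were. Of the 42, 12 had an unadjusted edgeR p under 0.05, as had 1798 of the 15316 genes tested. The fit with the replicate number as a block called 6, where 5.61% of all genes were called. Rbp2 was higher (edgeR adjusted p = 0.00715), and Rbp4, Fabp5, Dgat1, Bco1 and Rdh12 were lower (edgeR adjusted p = 0.0451, 0.0196, 0.0498, 0.0477 and 0.028). DESeq2 called 3 at 1 µM, Rbp2 higher and Rdh11 and Rdh12 lower, where 3.17% of all genes were called. Dgat1, Bco1 and Rdh11 were chosen for naming after their values were seen.

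By role, of 11 genes for uptake, storage and binding 6 were higher and 2 lower at 3 µM. Of 12 for retinol and retinal 2 were higher and 5 lower, and of 2 retinoic acid enzymes tested 0 were higher and 1 lower. Of 9 receptor partners and cofactors 1 was higher and 5 lower. Of 8 genes known to respond to retinoic acid 1 was higher and 4 lower. The groups are small, the background is that given for all genes at 3 µM, and a difference between roles was not tested.

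Genes for uptake, binding and storage included the list's largest rises. Rbp2, a cellular retinol-binding protein known from the intestine, went undetected with 0 counts in each DMSO library, and was at 2.03, 1.61 and 0.68 CPM at 1 µM, 11.3, 11.3 and 6.26 CPM at 1.5 µM, and 54.4, 56.5 and 16.9 CPM at 3 µM. Every treated library was above DMSO and culture 3 was the lowest at each dose, as for the squamous markers, whose part was not tested. Rbp2 was at least 140-fold higher at 3 µM against the floor of 3 counts per library (edgeR adjusted p = 4.09e-05). Fabp5, which can also carry retinoic acid and delivers it to PPARδ, rose 7.33-fold from 313.7, 550.7 and 287 CPM to 3318, 3128 and 1994 CPM (2.87 ± 0.34, edgeR adjusted p = 6.98e-05).

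Fabp5 did not keep a fixed ratio to Crabp2. It was 4.23, 10.8 and 5.32 times Crabp2 in CPM in DMSO, 2.62, 3.87 and 2.51 times at 1 µM, 4.07, 4.37 and 2.99 times at 1.5 µM, and 21.4, 18.5 and 9.60 times at 3 µM. Within all 3 cultures the ratio was below that of DMSO at 1 and 1.5 µM and above it at 3 µM, although the DMSO and 3 µM libraries overlapped. The mean log2 ratio was 2.64, 1.56, 1.91 and 3.96 in DMSO and at 1, 1.5 and 3 µM. It was 1.32 higher at 3 µM than in DMSO, with an exact permutation p of 0.2 that ignores the pairing by culture (two-sided, smallest possible 0.1). Ppard, which encodes PPARδ, rose 1.95-fold (log2 fold change 0.96 ± 0.14, edgeR adjusted p = 0.000273). Ppard was chosen for naming after its values were seen.

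The retinol transporter Stra6 was low, at 5, 1 and 11 counts in DMSO and 22, 65 and 70 at 3 µM (log2 fold change 3.45 ± 0.91, edgeR adjusted p = 0.00831), and its call was lost without culture 1 or 2 (highest edgeR adjusted p = 0.0585). Its relative Stra6l rose 10.4-fold, from 0.93, 1.63 and 2.42 CPM to 27.4, 15.7 and 8.63 CPM (3.38 ± 0.56, edgeR adjusted p = 0.000614). Lrat, which esterifies retinol for storage, had 1, 0 and 0 counts in DMSO, 17, 25 and 11 at 1.5 µM and 4, 12 and 14 at 3 µM (edgeR adjusted p = 0.00158 at 3 µM). At so few counts no fold is given for Lrat. Rbp4, the secreted retinol carrier, fell 21.4-fold, from 26.4, 109.1 and 150.5 CPM to 0.78, 2.31 and 10.1 CPM (−4.42 ± 1.04, edgeR adjusted p = 0.00455), and its call was lost without culture 2 (edgeR adjusted p = 0.102).

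Crabp1, the second retinoic acid-binding protein, was not called at 3 µM (log2 fold change 3.65 ± 1.82, edgeR adjusted p = 0.109). It was at 1.29, 2.34 and 18.6 CPM in DMSO and 4.86, 44.9 and 234.2 CPM at 3 µM. Crabp1 was higher at 3 µM than in DMSO within each culture and highest in culture 3 at each dose, and it passed with the replicate number as a block and with DESeq2 (lowest adjusted p of these 2 fits 0.000147).

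Enzymes of retinol and retinal went both ways. Rdh10, the main enzyme that makes retinal from retinol in the embryo, rose 2.56-fold, from 55.1, 36.8 and 37.9 CPM to 87.4, 110.1 and 134.7 CPM (log2 fold change 1.36 ± 0.29, edgeR adjusted p = 0.00297). Sdr16c5, another retinol dehydrogenase, rose 7.66-fold from 1.20, 1.42 and 1.62 CPM to 14.4, 14.1 and 4.07 CPM (2.94 ± 0.45, edgeR adjusted p = 0.000381). Dhrs3, which turns retinal back into retinol and is known to be induced by retinoic acid, fell 4.41-fold from 52.1, 57.6 and 72.9 CPM to 9.57, 15.1 and 16.6 CPM (−2.14 ± 0.25, edgeR adjusted p = 7.36e-05). No library of Dhrs3, Rdh10 or Sdr16c5 at 3 µM overlapped with DMSO.

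Rdh12, a retinal reductase, fell 4.89-fold from 19.7, 92.8 and 57.3 CPM to 12.1, 10.7 and 11.9 CPM (log2 fold change −2.29 ± 0.47, edgeR adjusted p = 0.00206). Adh1, an alcohol dehydrogenase that also oxidises retinol, fell 15.0-fold from 7.78, 15.6 and 8.46 CPM to 0.63, 0.64 and 0.83 CPM (−3.91 ± 0.46, edgeR adjusted p = 7.14e-05). The calls of Rdh12 and Rdh10 were lost without culture 2 (edgeR adjusted p = 0.0563 and 0.0766).

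Aldh1a7, listed with the retinoic acid enzymes as the paralog of Aldh1a1, showed the largest fall of the list. Whether it makes retinoic acid in these cells was not measured. It went from 91.3, 332.8 and 161 CPM in DMSO to 62.5, 113.8 and 41.4 CPM at 1 µM, 26.0, 38.1 and 4.93 CPM at 1.5 µM and 2.67, 5.71 and 0.21 CPM at 3 µM (log2 fold change at 3 µM −6.07 ± 1.06, edgeR adjusted p = 0.000832). The adipocyte marker Adipoq went from 512.5, 890.5 and 402.9 CPM in DMSO to 8.47, 16.8 and 0.69 CPM at 3 µM. Its cultures stood in the order of Aldh1a7 at each dose of CHIR99021 but not in DMSO. Rbp4 was highest at 3 µM in culture 3, where Adipoq was lowest. Adh1 had 8, 10 and 12 counts at 3 µM in cultures 1, 2 and 3, too few to rank the cultures. The part of adipocyte RNA in the fall of Aldh1a7, Rbp4 and Adh1 was not tested. Aldh1a2 was highest in culture 3 except at 3 µM, at 0.13, 1.12 and 9.21 CPM in DMSO, 0.30, 0.73 and 12.3 CPM at 1 µM, 0.19, 0.27 and 12.5 CPM at 1.5 µM and 0.31, 0.96 and 0.83 CPM at 3 µM. It was not called at 3 µM (−2.30 ± 1.92, edgeR adjusted p = 0.325), and without DMSO replicate 3 the log2 fold change was 0.32.

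Among receptor partners, Rxra, which pairs with the retinoic acid receptors, fell 1.42-fold from 357.3, 328.4 and 307.5 CPM to 252.2, 257 and 190.9 CPM (log2 fold change −0.50 ± 0.13, edgeR adjusted p = 0.00857), and the call was lost without culture 1 or 2 (highest edgeR adjusted p = 0.0705). Rxrb was at 46.4, 45.1 and 47.5 CPM in DMSO and 48.7, 52.3 and 45.8 CPM at 3 µM (0.08 ± 0.08, edgeR adjusted p = 0.412), and with library size alone its sign was the other one, at −0.12.

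**Figure D5:**
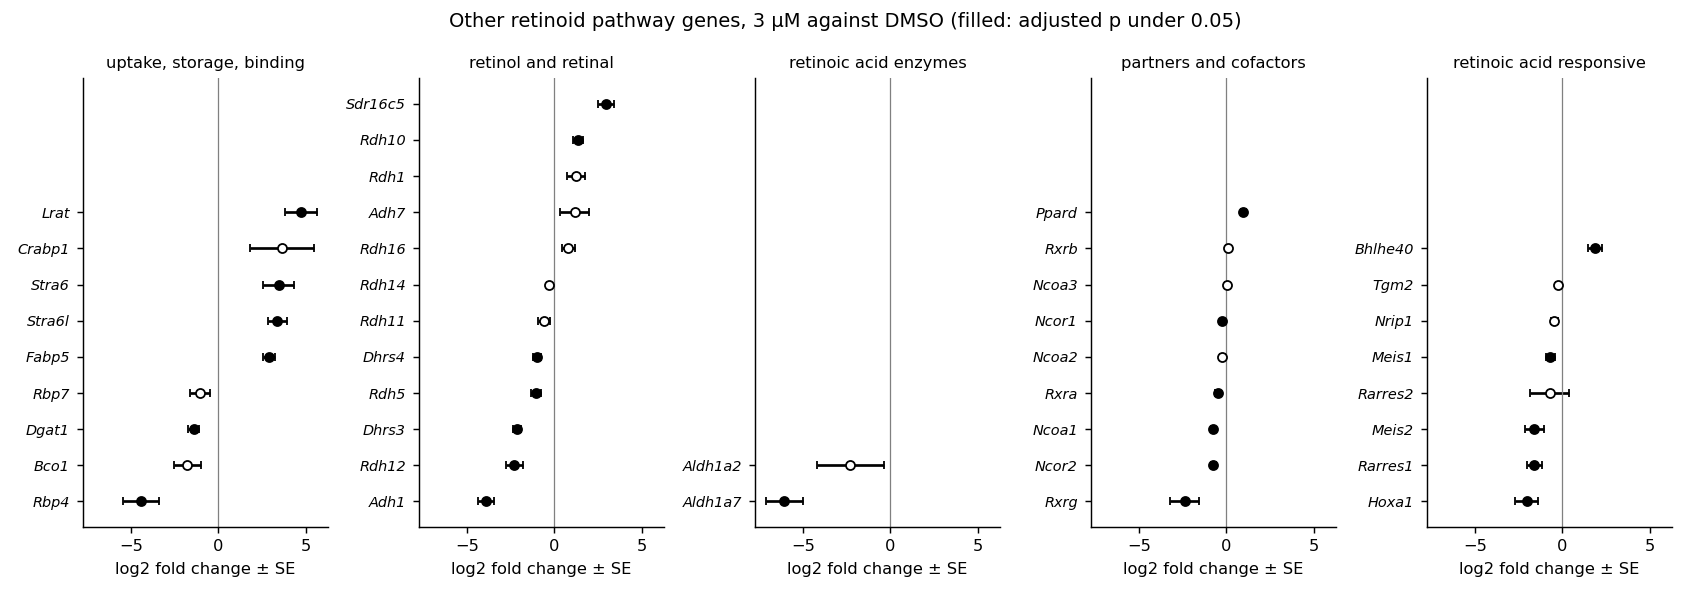
Log2 fold change ± SE at 3 µM against DMSO (edgeR) of other pathway genes tested, in 5 panels by role, filled where the adjusted p is under 0.05. Rbp2, with 0 counts in DMSO, is not drawn. Genes for uptake and binding hold the largest rises and Aldh1a7 the largest fall.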

How the data were processed

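The deposited table holds raw read counts per Ensembl gene that the authors made for 12 libraries. TopHat2 2.1, Bowtie 1.1.0, HTSeq and DESeq2 and the builds GRCm38 and mm10 are named, without their role, per the submitters' processing notes. The kit was stranded per the labels' protocols, and the strand setting of counting is not given in the sources used here. A deposited table of log values was not used. The genes followed, the pathway and marker lists and the rule for named genes (all 9 genes, up to 5 other pathway genes called at 3 µM in each direction with a mean of at least 50 counts, and 10 fixed ones) were chosen with earlier results of these data known. A gene of the pathway list, included in its counts, is not reported here by name.

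Counts were filtered with filterByExpr, scaled by TMM and tested two-sided with glmQLFit (robust) and glmQLFTest of edgeR 4.0.16 in R 4.3.3, with group means over all 12 libraries, and p-values were adjusted by Benjamini and Hochberg over 15316 genes, threshold 0.05. The pipeline was tested on simulated data. DESeq2 1.42.0, other scalings and filters, the replicate block and fits without a library or culture were alternatives. The fits without a library or culture had no replicate term. Libraries with the same replicate number come from the same animal per the labels and are thereby paired; deviations from group means correlated at 0.177 to 0.84 in 18 same-number pairs. Bounds use a floor of 3 counts per library, taking the highest floor of the group; a floor of 3 counts over the group, computed first, gave larger bounds and was dropped after both were known. Without molecular identifiers, floors cover counting error only. Exon lengths and overlaps came from GENCODE M21, coordinates are those of the deposited table, and the exact permutation test took 3 against 3 libraries.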

Additional observations from a re-analysis of the deposited data

Results flagged for a closer look

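Cyp26b1 moved in opposite directions in different cultures. All treated libraries of culture 3 were above their own DMSO library, at 2.78, 1.60 and 2.13 times its level at 1, 1.5 and 3 µM, while those of cultures 1 and 2 were below theirs, at 0.472, 0.121 and 0.18 times in culture 1 and 0.693, 0.22 and 0.227 times in culture 2. A slope differing between cultures was not called for Cyp26b1 (edgeR adjusted p = 0.662), in a test that called 0.0% of all genes.

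Dhrs9 also differed in direction, at low counts and in part by small margins. Culture 1 was below its DMSO library at every dose (0.571, 0.665 and 0.914 times). Cultures 2 and 3 were above theirs (1.21, 1.31 and 1.93 times, and 1.05, 1.02 and 1.70 times). The DMSO library of culture 2 had 17 counts. Culture 3 had 58 counts in DMSO, 58 at 1 µM and 55 at 1.5 µM, so its differences there were slight. The slope of Dhrs9 was not called as differing either (edgeR adjusted p = 0.842).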

How the results depend on the processing

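With the replicate number as a block, 2 members were called from 1 to 1.5 µM in place of 0, as against 1 with DESeq2 and 1 with the 2 groups alone. At 1.5 µM against DMSO the 5 calls became 3 with no filter and 3 with the 2 groups alone, and DESeq2 called 1 member for a slope differing between cultures. For the pathway list, 6 genes at 1 µM and 27 at 1.5 µM were called with the block, in place of 0 and 17, and 3 at 1 µM with DESeq2; alternatives for the list at these doses were chosen after seeing the data. Over the fits without a library or culture, the counts of members called ran from 0 to 5 at 1.5 µM, 2 to 7 at 3 µM, 0 to 1 from 1 to 1.5 µM, 0 to 5 from 1.5 to 3 µM and 4 to 7 for the slope, and for the pathway list from 0 to 2 at 1 µM, 2 to 20 at 1.5 µM and 14 to 32 at 3 µM. Except at the step from 1 to 1.5 µM and for the pathway list at 1 µM, the lowest count of each came without culture 2; without 3 µM replicate 3 there were 5 calls from 1.5 to 3 µM. These fits hold fewer samples and have no replicate term, so they ignore the pairing by culture. A call lost in them does not show that the effect rests on the culture left out. Rara, short of the threshold at 3 µM without culture 2, was at 0.229, 0.26 and 0.377 of its own DMSO level in cultures 1, 2 and 3. At 3 µM, Crabp2 and Cyp26a1 kept their calls in every fit.

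Signs turned only for values that were not called. With library size alone the log2 fold change was 0.0065 for Dhrs9 at 1.5 µM, −0.10 for Aldh1a1 and −0.0084 for Rarg from 1.5 to 3 µM, and −0.12 for Rxrb at 3 µM; Rarg from 1 to 1.5 µM was −0.016 with RLE size factors, −0.016 with DESeq2 and −0.0073 with 2 groups. Without a library or culture the ranges were −0.48 to 0.13, −0.32 to 0.15 and −0.20 to 0.43 for Dhrs9 (1 µM, 1.5 µM, 1 to 1.5 µM), −0.82 to 0.35 and −0.083 to 0.38 for Aldh1a1 (1 µM, 1.5 to 3 µM), −0.48 to 0.13 for Aldh1a3 (1.5 to 3 µM), −0.12 to 0.25 and −0.36 to 0.020 for Rarb (1 µM, 1.5 µM), −0.048 to 0.069 for Rarg (1 to 1.5 µM), −0.85 to 0.077 for Cyp26a1 and −1.02 to 0.34 for Cyp26b1 (1 µM), and −3.00 to 0.32 for Aldh1a2 (3 µM). The cause was not tested. Depth limits Aldh1a1, Rarb and Dhrs9 most, with at most 63, 35 and 77 counts per library.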
